A study of Ovis aries with 6 samples.

Results

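The wool keratins and keratin-associated proteins (KAPs) on a sheep skin array comprised 7 genes, namely KRT25, KRT27, KRT35, V15, K38, KRTAP5.4 and KRTAP4.3. They were chosen by name, with 1 probe each, from the 476 gene symbols that could be put to probes through RefSeq accessions. The name search found 11 keratin or KAP probes in all, since KRT25, KRT35, V15 and K38 each had a second probe. Skin of 3 small tail Han sheep, a coarse-wool breed, was compared with skin of 3 Aohan fine wool sheep (A/H), each on its own 1-colour Agilent array. All sheep were 12 months old, untreated and reared in pens, and a piece of full-thickness skin of about 1 cm2 was taken from the body side of each. The sampling season was that of follicle growth (anagen), according to the study. Each breed was represented by 1 ram and 2 ewes that shared a sire, and the sex of the sheep on a given array was not given. Each breed was also scanned in a session of its own, so breed, sire family and scan session cannot be told apart. The 3 arrays of a breed were 3 sheep, numbered here as Han 1 to 3 and Aohan 1 to 3.

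A wool fibre is built from keratin filaments embedded in a matrix of KAPs. Type I (acidic) keratins pair with type II (basic) keratins to form the filaments, and KAPs rich in cysteine cross-link them through disulphide bonds. KRT25 and KRT27 are type I keratins of the inner root sheath, the sleeve that moulds the growing fibre and is shed before the fibre leaves the skin. KRT35 is a type I hair keratin that appears early, in the matrix and the forming cortex and cuticle, whereas V15 (listed in the reference with the synonym KRT31) and K38 are type I hair keratins of the cortex. KRTAP5.4 and KRTAP4.3 belong to families of cysteine-rich KAPs. In the sheep assembly ARS-UI_Ramb_v3.0 the 5 keratins lie on chromosome 11, where V15 is the direct neighbour of K38, K38 of KRT32, and KRT32 of KRT35. KRT25 and KRT27 lie on either side of KRT26. KRTAP4.3 is on chromosome 11 as well, and KRTAP5.4 is on chromosome 21 between IFITM10 and DUSP8.

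K38 was the member that differed between the breeds, and it was lower in Aohan fine wool sheep. The other 6 members did not pass the test, with 95% confidence intervals that all lay within 1 log2 unit of no difference. Values are log2 signals relative to the 75th percentile of the probes on the same array, and a change is the Aohan mean minus the small tail Han mean. A probe passed at a limma p-value adjusted to below 0.05 over all 12481 probes tested. Of the 7 members 1 passed, beside 15.2% of all tested probes. In the 7 members the median change was 0.08 and the median absolute change 0.12, beside 0.02 and 0.32 over all tested probes. Over 658 tested probes bright enough for a low-gain scan on all 6 arrays, 5 members among them, the values were -0.07 and 0.20. Bulk skin cannot tell fewer follicle cells from less RNA per cell.

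**Figure D1:**
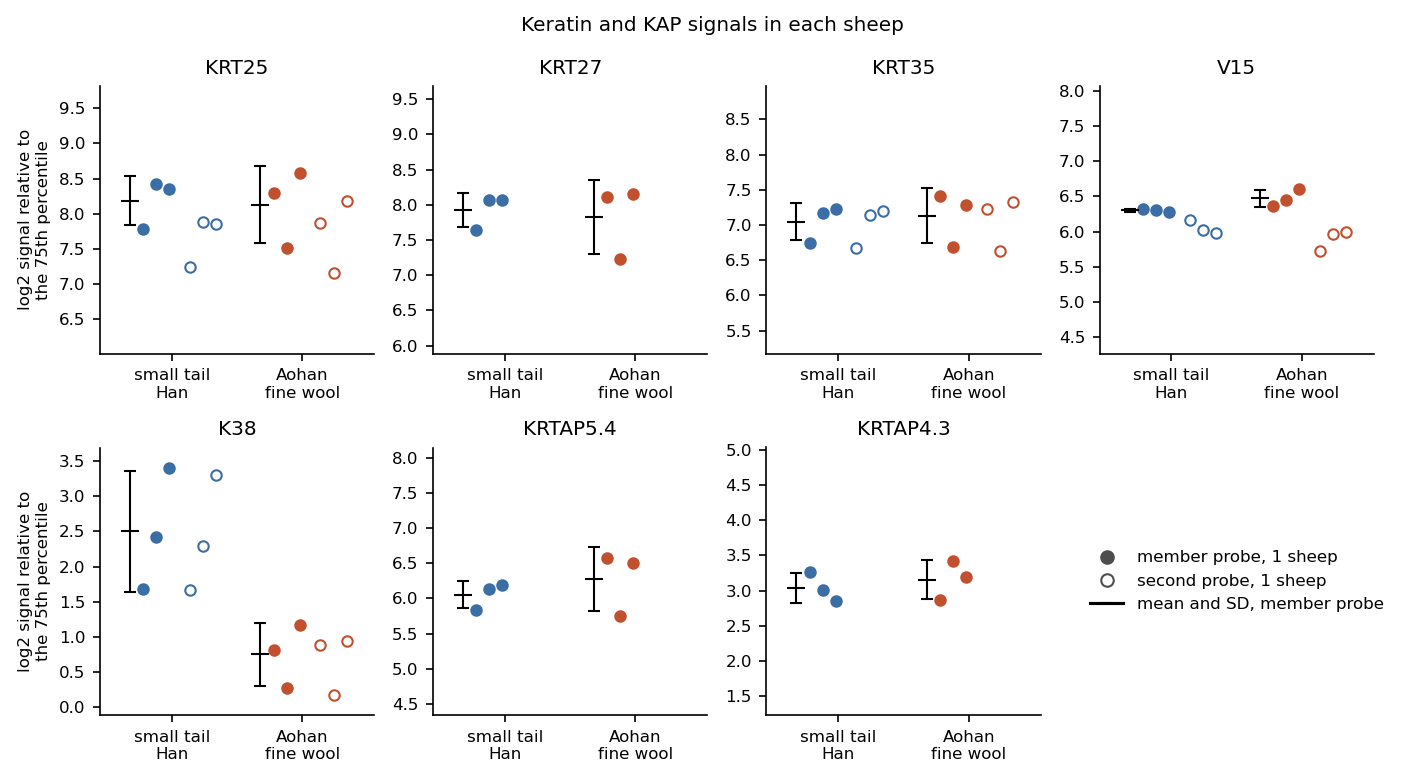
Log2 signal relative to the 75th percentile of the same array for each of the 7 members, 1 point per sheep, with filled points for the member probe, open points for the second probe, and bars for the mean and SD of the member probe (n = 3 per breed). Every panel spans the same number of log2 units. The K38 points of Aohan fine wool sheep all lie below those of small tail Han sheep, whereas the KRT25, KRT27, KRT35, KRTAP5.4 and KRTAP4.3 points of the breeds overlap.

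In K38, the cortical keratin, the signal was 1.68, 2.41 and 3.40 in Han 1 to 3 and 0.82, 0.27 and 1.17 in Aohan 1 to 3. The lowest small tail Han sheep was thus above the highest Aohan fine wool sheep, and Han 3 stood highest of all. The means were 2.50 ± 0.87 and 0.75 ± 0.45 (SD, n = 3), a change of -1.75 (SE 0.40, 95% confidence interval -2.66 to -0.83) that amounted to a 3.35-fold lower signal in Aohan fine wool sheep. The adjusted p in limma was 0.0214. An exact permutation test of 3 against 3 arrays gave p = 0.1, the smallest that this design allows. The scanner intensities before scaling were 7394, 9788 and 18483 in Han 1 to 3 against 1944, 2476 and 2537 in Aohan 1 to 3, and the raw signal was at most 2.79% of the scanner's saturation value.

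The second probe of K38 gave 1.67, 2.29 and 3.30 in Han 1 to 3 and 0.88, 0.18 and 0.95 in Aohan 1 to 3. It kept the order of the 3 small tail Han sheep. Aohan 2 was lowest again, but only after scaling, which subtracts the same constant from both probes of an array. Before scaling, the second probe stood at 2035, 2320 and 2181 in Aohan 1 to 3, with Aohan 2 highest. Its change was -1.75 (SE 0.38, 95% confidence interval -2.62 to -0.88, limma adjusted p = 0.0174). Both probes are read from the same RNA on the same arrays and are not independent measurements of the sheep. The size of the change in the member probe ranged from -1.79 to -1.47 over the 13 other ways of processing all 6 arrays. Ways that changed only the filter or the test kept it at -1.75 by construction. When 1 array was left out, the change ranged from -2.16 to -1.29. In 2 of the 13 the call was lost, by the methods' t-test after adjustment (adjusted p = 0.163) and by that test on the series matrix (adjusted p = 0.139). It was also lost without Han 2 (limma adjusted p = 0.0625) and without Aohan 2 (limma adjusted p = 0.0596). Without Han 3, the highest sheep, the change was -1.29 with a limma adjusted p of 0.0411.

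**Figure D2:**
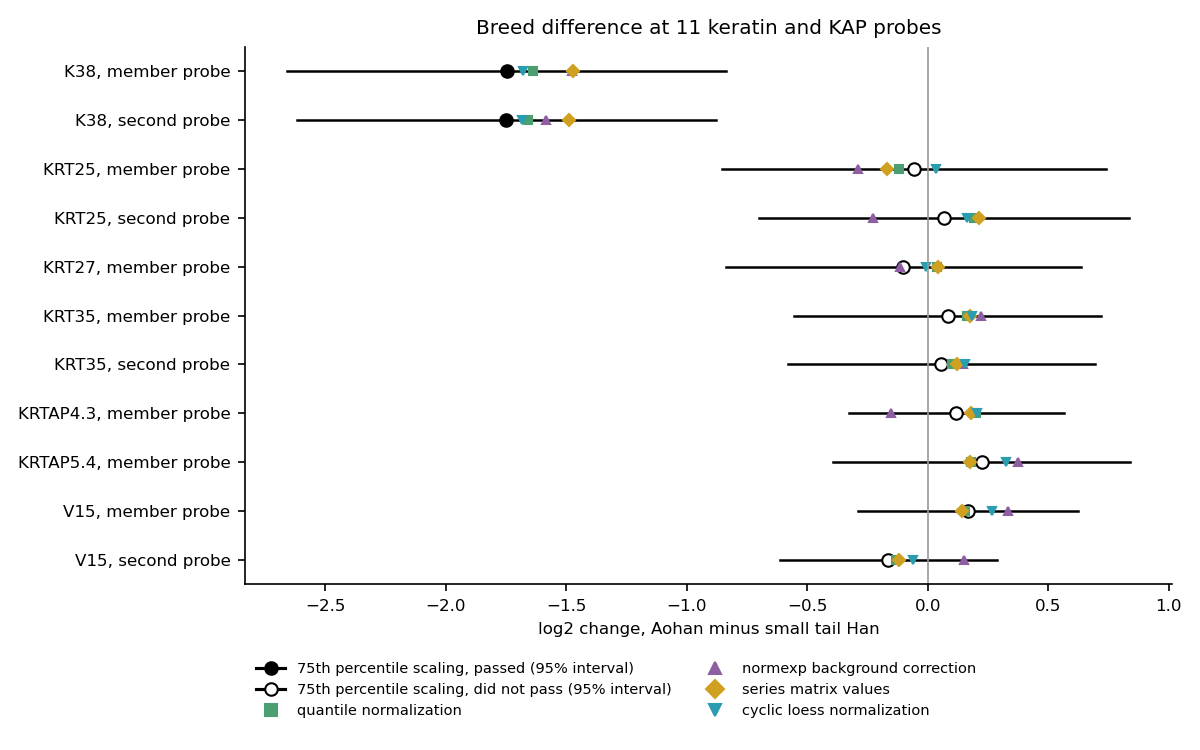
Log2 change, Aohan minus small tail Han, for the 7 member probes and the 4 second probes, with circles and lines for the main values and their 95% confidence intervals (limma, 3 sheep per breed) and coloured symbols for 4 other ways of processing. Both K38 probes lie between -1.75 and -1.47 under the settings drawn, and the intervals of the other 9 probes cross 0.

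The inner root sheath keratins did not pass. KRT25 gave 7.78, 8.42 and 8.36 in Han 1 to 3 and 8.29, 7.52 and 8.57 in Aohan 1 to 3. The lowest and the highest value were both in Aohan fine wool sheep, so the breeds overlapped completely. The means were 8.19 ± 0.35 and 8.13 ± 0.55 (SD, n = 3), a change of -0.06 (SE 0.35, 95% confidence interval -0.85 to 0.74, limma adjusted p = 0.935). The second KRT25 probe changed by 0.07 (SE 0.34, limma adjusted p = 0.919).

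KRT27, the other inner root sheath keratin, gave 7.64, 8.07 and 8.07 in Han 1 to 3 and 8.11, 7.22 and 8.15 in Aohan 1 to 3. As in KRT25, Aohan 2 was lowest and Aohan 3 highest. The change was -0.10 (SE 0.33, 95% confidence interval -0.84 to 0.64, limma adjusted p = 0.875). As folds of the small tail Han signal, the KRT25 interval ran from 0.553 to 1.67 and the KRT27 interval from 0.559 to 1.56. The sign of the KRT27 change depended on the normalization, since it was 0.04 after quantile normalization.

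KRT35, the early hair keratin, gave 6.74, 7.18 and 7.23 in Han 1 to 3 and 7.42, 6.69 and 7.29 in Aohan 1 to 3. Han 1 and Aohan 2 were the low sheep, and the others lay close together. The change was 0.08 (SE 0.28, 95% confidence interval -0.55 to 0.72, limma adjusted p = 0.879), and that of the second probe was 0.06 (SE 0.28, limma adjusted p = 0.920).

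V15 was the steadiest of the members in small tail Han sheep. It gave 6.32, 6.31 and 6.28 in Han 1 to 3 and 6.37, 6.44 and 6.61 in Aohan 1 to 3. All 3 Aohan fine wool sheep were above all 3 small tail Han sheep, but by little. The change was 0.17 (SE 0.20, 95% confidence interval -0.29 to 0.63), with a limma adjusted p of 0.631 and an exact permutation p of 0.1. V15 and K38 were the 2 of 7 members whose breeds did not overlap, beside 34.2% of all tested probes. The second V15 probe pointed the other way, with a change of -0.16 (SE 0.20, limma adjusted p = 0.637) and values of 6.17, 6.02 and 5.99 in Han 1 to 3 and 5.73, 5.97 and 5.99 in Aohan 1 to 3. V15 and K38 are adjacent genes of the same class, and only K38 passed.

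Of the KAPs, KRTAP5.4 had 5 spots on each array. Its mean signal was 5.83, 6.14 and 6.19 in Han 1 to 3 and 6.58, 5.75 and 6.50 in Aohan 1 to 3. Aohan 2 was the lowest sheep and the other Aohan fine wool sheep were the highest. The change was 0.22 (SE 0.27, 95% confidence interval -0.39 to 0.84, limma adjusted p = 0.633). The coefficient of variation between spots of 1 array was 2.10, 2.80 and 1.93% in Han 1 to 3 against 2.27, 8.94 and 4.32% in Aohan 1 to 3. This spread is within an array only and holds none of the error of the scaling between arrays.

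KRTAP4.3 gave 3.26, 3.01 and 2.85 in Han 1 to 3 and 2.86, 3.42 and 3.19 in Aohan 1 to 3. The breeds overlapped, and here Aohan 2 was the highest sheep. The change was 0.12 (SE 0.20, 95% confidence interval -0.33 to 0.56, limma adjusted p = 0.737). It turned to -0.15 when the background was corrected with normexp, a model-based correction of the spot signal.

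The members differed in brightness and in how their intensities moved before scaling. KRT25, KRT27, KRT35, V15 and KRTAP5.4 were so bright that the software took their signal from the low-gain scan on all 6 arrays, whereas K38 and KRTAP4.3 never needed it. The raw KRT25 signal reached 69.1 to 96.2% of the saturation value in small tail Han sheep and 36.9 to 52.1% in Aohan fine wool sheep, and no spot of a member was marked saturated. Before scaling, KRT27 was nearly flat within a breed, with intensities of 461769, 493496 and 469630 in Han 1 to 3 and 304381, 306383 and 321058 in Aohan 1 to 3. The highest was thus 1.07-fold the lowest in small tail Han sheep and 1.05-fold in Aohan fine wool sheep. The 75th percentile that sets the scale was 2309, 1837 and 1747 in Han 1 to 3 and 1103, 2048 and 1131 in Aohan 1 to 3, a span of 1.32-fold and 1.86-fold. It was lower in both Aohan 1 and Aohan 3 than in any small tail Han sheep.

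KRTAP5.4 was as flat as KRT27 before scaling, at 131242, 129272 and 127726 in Han 1 to 3 and 105173, 110391 and 102669 in Aohan 1 to 3. KRT25 was at 507967, 628306 and 573020 in Han 1 to 3 and 346180, 375107 and 430206 in Aohan 1 to 3. KRT35 was at 247511, 265753 and 261721 in Han 1 to 3 and 188868, 211891 and 176525 in Aohan 1 to 3. None of these 3 members spanned more than 1.24-fold within a breed, and each was brighter in every small tail Han sheep than in any Aohan fine wool sheep. V15 and KRTAP4.3 moved with the 75th percentile instead. V15 was at 184191, 145692 and 136168 in Han 1 to 3 and 90942, 178192 and 110236 in Aohan 1 to 3, a span of 1.35-fold and 1.96-fold. KRTAP4.3 was at 22129, 14768 and 12563 in Han 1 to 3 and 8016, 21913 and 10312 in Aohan 1 to 3, a span of 1.76-fold and 2.73-fold. Within each breed, both followed the order of the 75th percentile, with Han 1 and Aohan 2 brightest. All these intensities were taken after background subtraction and the software's surface correction, which was 0 for Han 2 and Han 3. The raw KRT25 signal spread more widely within a breed, at 69.1 to 96.2% of saturation in small tail Han sheep and 36.9 to 52.1% in Aohan fine wool sheep.

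Without scaling, the median change over all tested probes was -0.49. KRT25 stood at -0.57 and KRT27 at -0.61 on that scale, while KRT35 stood at -0.43 and KRTAP5.4 at -0.29. None of these 4 overlapped between the breeds. The share of all tested probes without overlap was not counted on this scale, so this is no result about the members. K38 stood at -2.26. Scaling subtracts 1 constant per array, so every probe's change moves by the same amount between these scales.

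**Figure D3:**
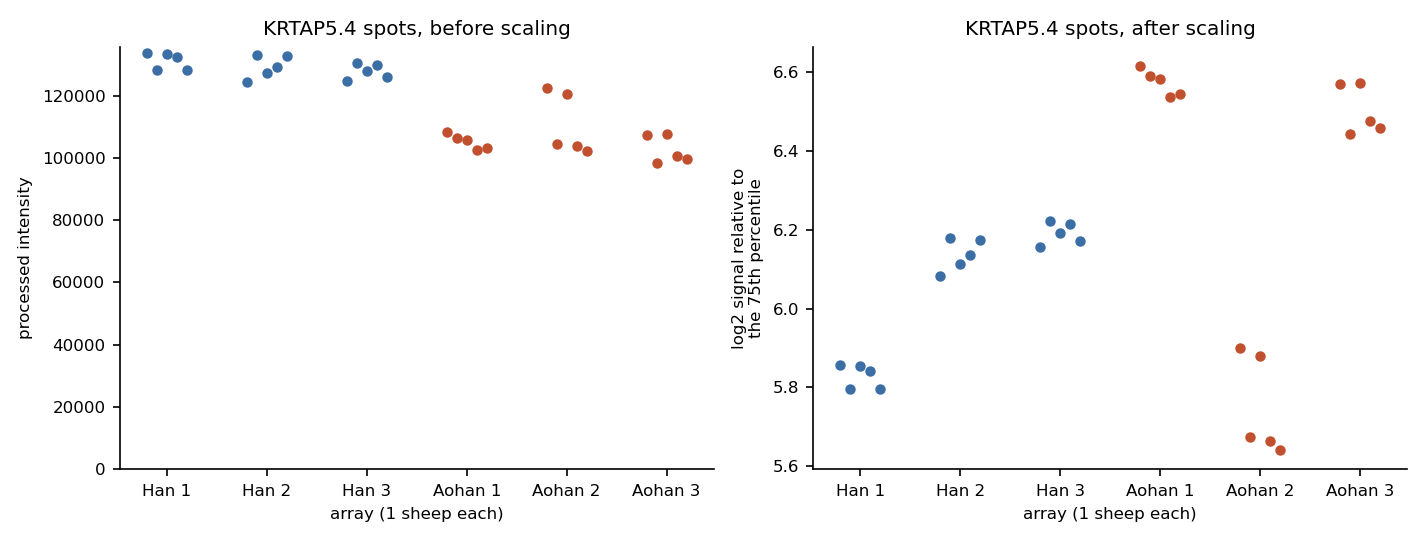
The 5 KRTAP5.4 spots on each array, as processed intensity before scaling (left) and as log2 signal relative to the 75th percentile after scaling (right). Before scaling the small tail Han spots all lie above the Aohan spots, and after scaling Aohan 2 lies below the other arrays except Han 1, which it overlaps.

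After scaling, KRT25, KRT27, KRT35 and KRTAP5.4 shared an array-to-array pattern. Relative to its own mean over the 6 arrays, each was low in Han 1 (-0.38 to -0.23) and Aohan 2 (-0.65 to -0.40) and high in Aohan 3 (0.20 to 0.42). Han 1 and Aohan 2 had the highest 75th percentile of their breed (2309 and 2048), which scaling subtracts from every probe. KRT27 and KRTAP5.4 were nearly flat within a breed before scaling, so their scaled differences within a breed are nearly those of the subtracted constants. Why they were flat was not tested. The same pattern was found in the 658 tested probes that were read from the low-gain scan on all 6 arrays, whose median was -0.21, 0.14 and 0.20 in Han 1 to 3 and 0.17, -0.43 and 0.14 in Aohan 1 to 3. Of these bright probes 2.58% passed the test, beside 15.2% of all tested probes. The part of brightness in the members' pattern was not tested. V15, bright as well, stayed between -0.10 and 0.22, and KRTAP4.3 ran opposite, with 0.16 in Han 1 and 0.32 in Aohan 2. K38 ran from 1.78 in Han 3 to -1.35 in Aohan 2, and within each breed it was lowest in Han 1 and in Aohan 2.

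**Figure D4:**
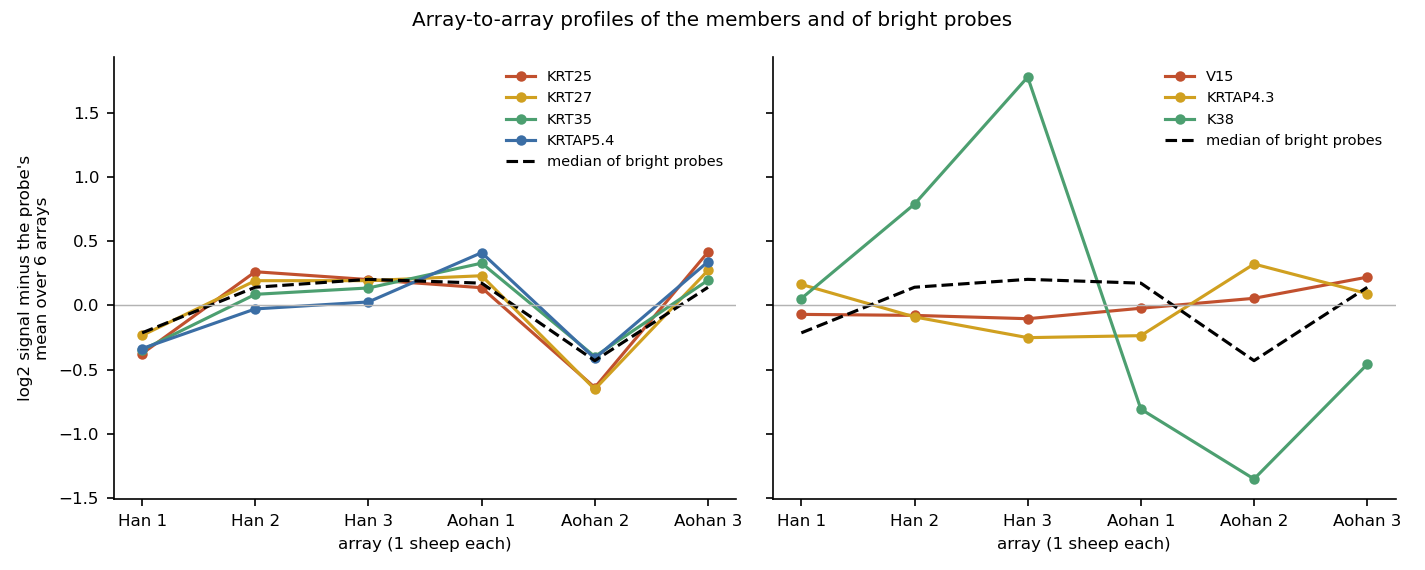
Log2 signal of each member minus its mean over the 6 arrays, in the order Han 1 to 3 and Aohan 1 to 3, with the dashed line for the median of the 658 bright probes. KRT25, KRT27, KRT35 and KRTAP5.4 (left) run with the dashed line in their lows at Han 1 and Aohan 2, whereas V15 and KRTAP4.3 (right) do not. K38 (right) is also lowest of its breed in Han 1 and Aohan 2, but spans a wider range and is higher in small tail Han sheep.

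Differences between members on the same array do not depend on a scaling by 1 constant per array, but other kinds of processing can change them. In the 6 pairs that hold K38, the breeds did not overlap and K38 was shifted down in Aohan fine wool sheep by 1.65 to 1.97 relative to the other member. Of the 15 pairs without K38, 1 did not overlap, with shifts of 0.03 to 0.33 in size. That pair was KRT27 minus KRTAP5.4, at 1.81, 1.93 and 1.88 in Han 1 to 3 and 1.53, 1.47 and 1.64 in Aohan 1 to 3. KRT27 was therefore 0.33 lower relative to KRTAP5.4 in Aohan fine wool sheep on this scale. The size depended on the processing. The KRT27 and KRTAP5.4 changes were 0.04 and 0.18 with quantile normalization, closer together, and -0.11 and 0.38 with normexp, further apart. The exact permutation p was 0.1 for each of these 7 pairs, the smallest possible, and 0.3 after Benjamini-Hochberg adjustment over 21 pairs, which share members and are not independent.

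The same subtraction compared both probes of a gene. For K38 the member probe minus the second probe averaged 0.08 ± 0.06 in small tail Han sheep and 0.08 ± 0.14 in Aohan fine wool sheep (SD, n = 3). For KRT35 the shift between breeds was 0.03, and the breeds overlapped. For V15 the values were 0.15, 0.29 and 0.30 in Han 1 to 3 and 0.63, 0.48 and 0.62 in Aohan 1 to 3, so the V15 probes moved apart by 0.33 between breeds. For KRT25 they were 0.54, 0.53 and 0.50 in Han 1 to 3 and 0.43, 0.36 and 0.39 in Aohan 1 to 3, a shift of -0.13. The exact permutation p was 0.1 for V15 and for KRT25 and 0.2 after adjustment over the 4 genes. The sizes depended on the processing. With the series matrix values the shift was 0.26 for V15 and -0.38 for KRT25, and the breeds did not overlap in either. With normexp it was 0.18 for V15 and -0.06 for KRT25, and the breeds overlapped in both. With normexp both V15 probes were higher in Aohan fine wool sheep, by 0.33 and 0.15, without passing the test.

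**Figure D5:**
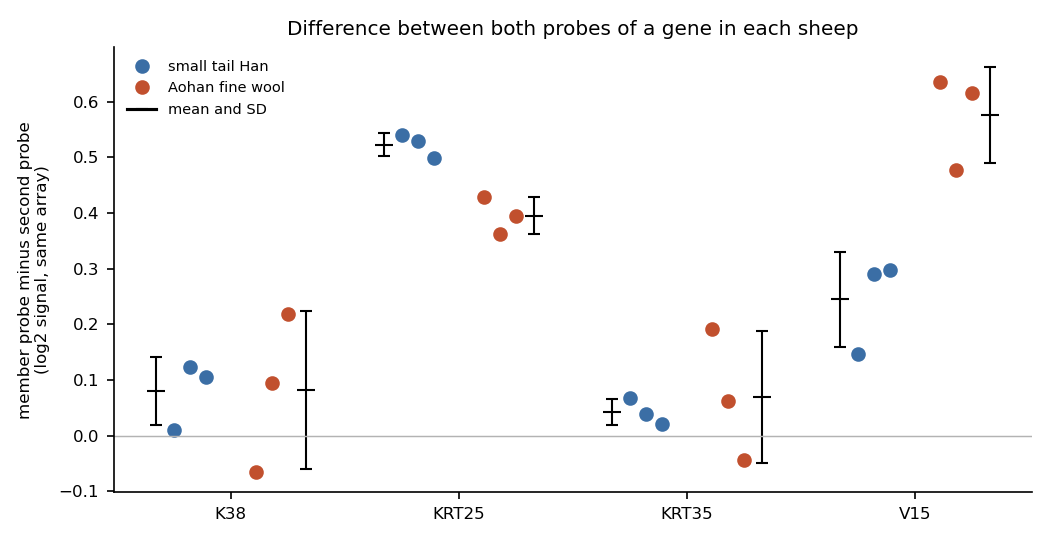
Member probe minus second probe on the same array (log2), 1 point per sheep, with mean and SD (n = 3 per breed), for the 4 genes with a pair of probes. The breeds are apart for V15 and KRT25 and overlap for K38 and KRT35.

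The other genes of fibre and follicle were taken from 4 lists of 108 symbols in all, of which 18 genes with 28 probes could be tested. Of these probes 7 passed higher in Aohan fine wool sheep and 1 lower, beside 7.57% and 7.60% of all tested probes. The lists were chosen with earlier results of these data known, so these counts are no separate result. LOC443313, TFAP2A, FGF2, CDK1 and CDKN1C are also among the differing genes that the study reported from the same arrays. In the list of epidermal differentiation, 2 of 3 probes passed, both of LOC443313, with changes of 5.28 and 4.52. The study describes this gene as a type II small proline-rich protein. SFN (stratifin, a 14-3-3 protein of keratinocytes) did not pass, with a change of 0.07 (limma adjusted p = 0.896). In the list of follicle keratinization and its regulators, 1 of 4 probes passed. This was TFAP2A, a transcription factor of epidermal cells, with 0.76 (SE 0.14, limma adjusted p = 0.00950), while its other probe changed by 0.17 (limma adjusted p = 0.510). PADI3, which converts arginine to citrulline in trichohyalin of the inner root sheath, changed by 0.29 (limma adjusted p = 0.592) and -0.14 (limma adjusted p = 0.727) at its probes.

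In the list of follicle growth and cycling signals, 3 of 17 probes passed, all higher in Aohan fine wool sheep. IGF2, an insulin-like growth factor, rose by 1.12 at one probe (SE 0.21, limma adjusted p = 0.00871). Its other probe changed by 0.68 (limma adjusted p = 0.107). The IGF2 probe that passed was dim, with means of -2.38 in Aohan fine wool sheep and -3.51 in small tail Han sheep. The other was brighter, at 2.67 and 1.99. TGFB1, a growth factor that promotes the regression of follicles, rose by 0.82 (limma adjusted p = 0.0192), a call lost without Han 2 (limma adjusted p = 0.0835) and without Han 3 (limma adjusted p = 0.0821), with the signal before the surface correction (limma adjusted p = 0.0533) and by the methods' t-test after adjustment. FGF2, a fibroblast growth factor, rose by 0.93 at one probe (limma adjusted p = 0.0254), and its other probe changed by 0.40 (limma adjusted p = 0.258). Both FGF2 probes were dim, with means of -3.52 and -3.12 in Aohan fine wool sheep. With normexp the first changed by 0.43 and did not pass (limma adjusted p = 0.483), and its call was also lost with a replicate block, by the methods' t-test after adjustment, and without Han 2, Aohan 2 or Aohan 3, where the change was 0.77, 0.92 and 0.92. The IGF2 call was lost by the methods' t-test after adjustment. BMP4, a signal of the dermal papilla, changed by -0.58 and missed the threshold (limma adjusted p = 0.0506), which it passed after quantile normalization, with a change of -0.47.

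In the list of matrix cell proliferation, CDK1, the kinase that drives mitosis, rose by 0.73 (limma adjusted p = 0.0147). Its change was 0.41 with normexp (limma adjusted p = 0.191) and 0.43 with the signal before the surface correction (limma adjusted p = 0.166), and the call was also lost with a replicate block and without Han 2, Han 3 or Aohan 3, where the change was 0.70, 0.66 and 0.76. CDKN1C, an inhibitor of cyclin-dependent kinases, fell by 0.73 (limma adjusted p = 0.0115), a call lost without Han 2 (limma adjusted p = 0.0715). The MYC probes changed by -0.53 and -0.22 and did not pass (limma adjusted p = 0.201 and 0.416). Of the 28 probes, 4 passed when Han 2 was left out.

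Markers of other cells in skin also moved with breed. In the list of T cell and leukocyte markers, 5 of 11 probes passed, all higher in Aohan fine wool sheep, beside 7.57% of all tested probes. They were both probes of ITGB2, both of CD3E and 1 of CD3D, so they are not 5 separate genes. The probes of CD247, LCK and CD14 did not pass, and 1 CD14 probe changed by -0.31. The summed linear level ran from 5.72 to 9.13 in small tail Han sheep and from 11.7 to 14.1 in Aohan fine wool sheep. CD4 was not tested because it was too dim. In the muscle list 2 of 3 probes passed, both lower, namely CNN1 and 1 of TNNC2, beside 7.60% of all tested probes. The other TNNC2 probe changed by -0.95 and did not pass (limma adjusted p = 0.0688). The summed level ran from 41.1 to 56.9 in small tail Han sheep and from 14.5 to 24.2 in Aohan fine wool sheep. This sum was almost all CNN1, whose mean log2 signal in small tail Han sheep was 5.61. The TNNC2 probes were dim, with means of -4.33 and -4.09 in the same sheep. In the fibroblast list 1 of 8 probes passed (SERPINF1, higher), again beside 7.57%, and the summed level overlapped. None of the 4 probes of the melanocyte list, 3 endothelial, 4 sebocyte and adipocyte probes or the 1 erythrocyte probe passed in limma, against 3, 1, 1 and 0 at an unadjusted p below 0.05. The 3 of the melanocyte list ran in opposite directions, with 1 TYR probe at -0.68 and the ASIP probes at 0.71 and 0.62. The part of these cells in the K38 difference was not tested.

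The named genes whose array-to-array pattern was nearest to the mean pattern of the 7 members were sought among 600 probes of RefSeq-named genes. Likeness was the root mean square of the differences in log2 signal over the 6 arrays, each probe relative to its own mean. UBB (polyubiquitin) was nearest, at 0.058. SERPINA14 at 0.078, RPS26 at 0.082, DYNLT3 at 0.084 and RPS25 at 0.086 came next, with RPS26 and RPS25 coding for ribosomal proteins. Of these, UBB, RPS26, DYNLT3 and RPS25 were bright enough for the low-gain scan on all 6 arrays.

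K38 was compared by itself as well, a choice made after its values were seen. The nearest probes were those of MX2 at 0.274 and ISG15 at 0.282, both genes induced by interferon, and then RTP4 at 0.345. These distances were larger than that of UBB from the mean pattern. Their values relative to their own means in Han 3, the highest sheep for K38, were 1.80 for MX2, 2.19 for ISG15 and 1.37 for RTP4. They were picked for likeness to K38, so their height in Han 3 and their lower level in Aohan fine wool sheep follow from the choice and are no separate result.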

How the data were processed

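Total RNA of 6 sheep was amplified, labelled with Cy3 and hybridised to the Agilent sheep array. The deposited scanner files hold the intensity of each spot, made by the authors with Agilent Feature Extraction (10.5.1.1 in the file headers), which subtracts background and joins a high-gain and a low-gain scan. The surface correction of that software is 0 in the headers of 2 arrays, Han 2 and Han 3. The deposited series matrix holds the authors' log2 values of the same arrays, with equal medians of 8.31. The study's methods name GeneSpring GX for the analysis, after another version of Feature Extraction than the headers give, and do not state how these values were normalized. They served as an alternative. Control and outlier-flagged spots were left out, spots of a probe were averaged, and log2 processed intensity minus the array's 75th percentile was used. Well above background were 11055 to 12965 of 15008 probes in small tail Han sheep and 10774 to 13418 in Aohan fine wool sheep. The number of arrays limits the precision.

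A probe entered the test when 3 or more of the 6 arrays had it well above background and each breed had 2 or more values. The 12481 such probes were fitted with limma 3.58.1 in R 4.3.3 (lmFit and eBayes, prior variance following intensity), and the two-sided p-values were adjusted over them by Benjamini-Hochberg. The procedure was tested on simulated data. Single values were compared with a two-sided exact permutation test. All 11 keratin and KAP probes were well above background on all 6 arrays. Of 758 probes with a RefSeq accession, 734 were found in the reference. Probes without such an accession were not named. The arrays name no genome build, so no coordinates are given.

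The text names the 7 members, their second probes, up to 4 probes of smallest p in each follicle list, and the 5 named genes nearest to the members' mean pattern. The other IGF2 and FGF2 probes, TNNC2, CNN1, SERPINF1, TYR, ASIP, the named T cell and leukocyte markers, and the genes nearest to K38 were named after their values were seen. Members and lists were chosen with earlier results of these data known. Alternatives were quantile normalization, normexp with an offset of 50, the series matrix, other filters, no intensity trend, a replicate block, leaving out each array and the methods' t-test. Chosen after seeing the data were cyclic loess, median scaling, the signal before the surface correction and the methods' t-test on the series matrix. A planned description of the members' promoters and proteins was not made.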

Additional observations from a re-analysis of the deposited data

How the results depend on the processing

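Of 143 values of the 11 keratin and KAP probes under settings that kept all arrays, 128 kept their direction and their side of the threshold. Settings that changed only the filter or the test kept the main change by construction, so there only the side of the threshold could move. The count of members that passed, 1 in the report, was 0 by the methods' t-test after Benjamini-Hochberg adjustment (K38 adjusted p = 0.163), 0 by that test on the series matrix (K38 adjusted p = 0.139) and 2 with cyclic loess, where KRTAP5.4 stood at 0.33 (limma adjusted p = 0.0402). With 1 array left out it ran from 0 to 1. The count of second probes, 1, was 0 by both versions of that t-test and ran from 0 to 1 with 1 array left out (0 without Han 2, limma adjusted p = 0.0521). Over all 12481 probes, 1893 passed, against 1234 with the replicate block, 712 by the methods' t-test after adjustment and 3234 at its unadjusted threshold, 864 by that test on the series matrix, and 767 to 2239 with 1 array left out (767 without Han 2, 942 without Han 3 and 1082 without Aohan 3). Of the 28 follicle probes 8 passed, against 5 by the methods' t-test after adjustment and 4 to 10 with 1 array left out.

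The sign turned for KRT25 at 0.035 with cyclic loess, for KRT27 at 0.040 with quantile normalization and 0.044 with the series matrix, by limma and by the t-test alike. It turned with normexp and with the signal before the surface correction for KRTAP4.3 (-0.15 and -0.15), the second KRT25 probe (-0.23 and -0.24), the second V15 probe (0.15 and 0.10), SFN (-0.10 and -0.11), one PADI3 probe (-0.028 and -0.094) and one MYC probe (0.040 and 0.038). With 1 array left out, the change ran from -0.28 to 0.25 for KRT25, -0.26 to 0.20 for KRT27, -0.069 to 0.30 for KRT35, -0.013 to 0.27 for KRTAP4.3, -0.15 to 0.36 for the second KRT25 probe, -0.11 to 0.27 for the second KRT35 probe, -0.092 to 0.30 for SFN and, for the PADI3 probes, -0.015 to 0.62 and -0.25 to 0.055. KRT25 kept its sign with normexp and with the signal before the surface correction, at -0.29 and -0.32 (limma adjusted p = 0.830 and 0.484). The causes were not tested.

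Replicate numbers only name the sheep: the deviations of same-numbered sheep correlated at -0.22, -0.37 and 0.28 across 12410 probes. With the replicate number as a block, K38 had a limma adjusted p of 0.00490 and remained the 1 member that passed. Arrays of 3 sheep per breed bound the differences of the 6 other members no closer than the intervals given, and raw KRT25 signal reached 96.2% of the saturation value.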
